A study of Bos taurus with 86 samples.

Results

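The imprinted genes IGF2, MEST, NAP1L5, IGF2R, NAP1L4 and GNAS were followed in single bovine embryos. All array rows whose single gene symbol in the platform annotation was one of these were taken, each clone on its own. The rule found 22 of 16416 rows, which are 2 spots each of 11 cDNA clones for 6 gene symbols. Of these clones, 9 had values in at least 7 embryos of every group and were tested among 6908 clones and unlisted rows.

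The series holds 43 embryos: 15 IVF, 14 IVD and 14 AI. IVF was read as in vitro fertilization and AI as artificial insemination, while IVD, which the labels leave as an abbreviation, is kept as a group name. By its title the study asks how maturation, fertilization and culture in vitro change expression in single embryos. Breed, embryo stage and culture conditions were not found in the labels. Each embryo was hybridised on 2 two-colour arrays with the dyes exchanged, against a common reference RNA shared by all groups, so every value is a log2 ratio. Embryo RNA had passed through 3 rounds of linear amplification and reference RNA through 2, in all groups. The IVD embryos numbered 12_1 to 12_4 may be related, which the labels do not settle.

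Imprinted genes are expressed mainly from the allele inherited from one parent, under the control of methylation marks laid down in the egg or sperm. IGF2, MEST and NAP1L5 are known to be expressed from the paternal allele. IGF2R is known for maternal expression in mouse and cattle, and NAP1L4 for maternal expression in mouse placenta and expression from both alleles elsewhere. The GNAS locus uses several promoters with different parental expression, and its Gs-alpha transcript comes from both alleles in most tissues. IGF2 is a fetal growth factor, and IGF2R binds it for breakdown in lysosomes. Changes in IGF2R have been linked to overgrown calves and lambs after embryo culture. The arrays do not separate the parental alleles, so they measure only summed expression.

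The direction of the ratio, embryo over reference, is likely but not stated by the labels. It was read from trophectoderm genes, of which 24 of 31 clones had a mean above 0 in each group, while 0 of 4 clones of blood and immune cells did. If the ratios run the other way, all signs are to be turned. The embryo medians of the trophectoderm clones ran from 1.19 to 2.11 in IVF, 0.686 to 2.5 in IVD and 1.45 to 2.77 in AI. No clone of the list of maternal oocyte transcripts passed the filter. Rows without a value made up 25.5% of the cells in IVF, 7.47% in IVD and 27% in AI. The correlation of an embryo's 2 arrays after turning 1 of them was 0.717 to 0.911 in IVF, 0.589 to 0.767 in IVD and 0.816 to 0.912 in AI. Every IVD embryo thus lay below every AI embryo in dye-swap agreement, so effects of the arrays and of the group cannot be told apart in comparisons with IVD. IVF embryos 1 and 11 stood farthest from their own group, and IVF embryo 7 had the lowest dye-swap agreement in IVF. Whole embryos were measured, so fewer cells of a type and less RNA per cell cannot be told apart.

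Among the member clones, MEST and NAP1L5 were higher and GNAS AW465936 and a clone of IGF2R lower in IVD embryos than in both other groups. NAP1L4 AW464388 was lower in IVF embryos than in both other groups, and its second clone was lower in IVF and IVD than in AI. A clone of IGF2 was higher in IVF. In all, 3 of 9 member clones were called in IVF over AI (limma, Benjamini-Hochberg adjusted p under 0.05 over all 6908 features), 1 of them higher and 2 lower. Of all features, 38% were called there, 20.3% higher and 17.7% lower. In IVD over AI, 5 member clones were called, 2 higher and 3 lower, against 46.2% of all features (24.9% higher and 21.3% lower). In IVF over IVD, 6 were called, 3 higher and 3 lower, against 47.2% of all features (22.5% higher and 24.8% lower). With only 9 clones, these counts are not read as above or below the share of the whole array, and no test of the 9 clones as a list was made. The F-test over the 3 groups called 66.7% of all features and, among member clones, all but IGF2 AW461816 (adjusted p = 0.497) and IGF2R AW463608 (adjusted p = 0.588). The comparisons with AI share the AI embryos, so they are not independent of each other.

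**Figure D1:**
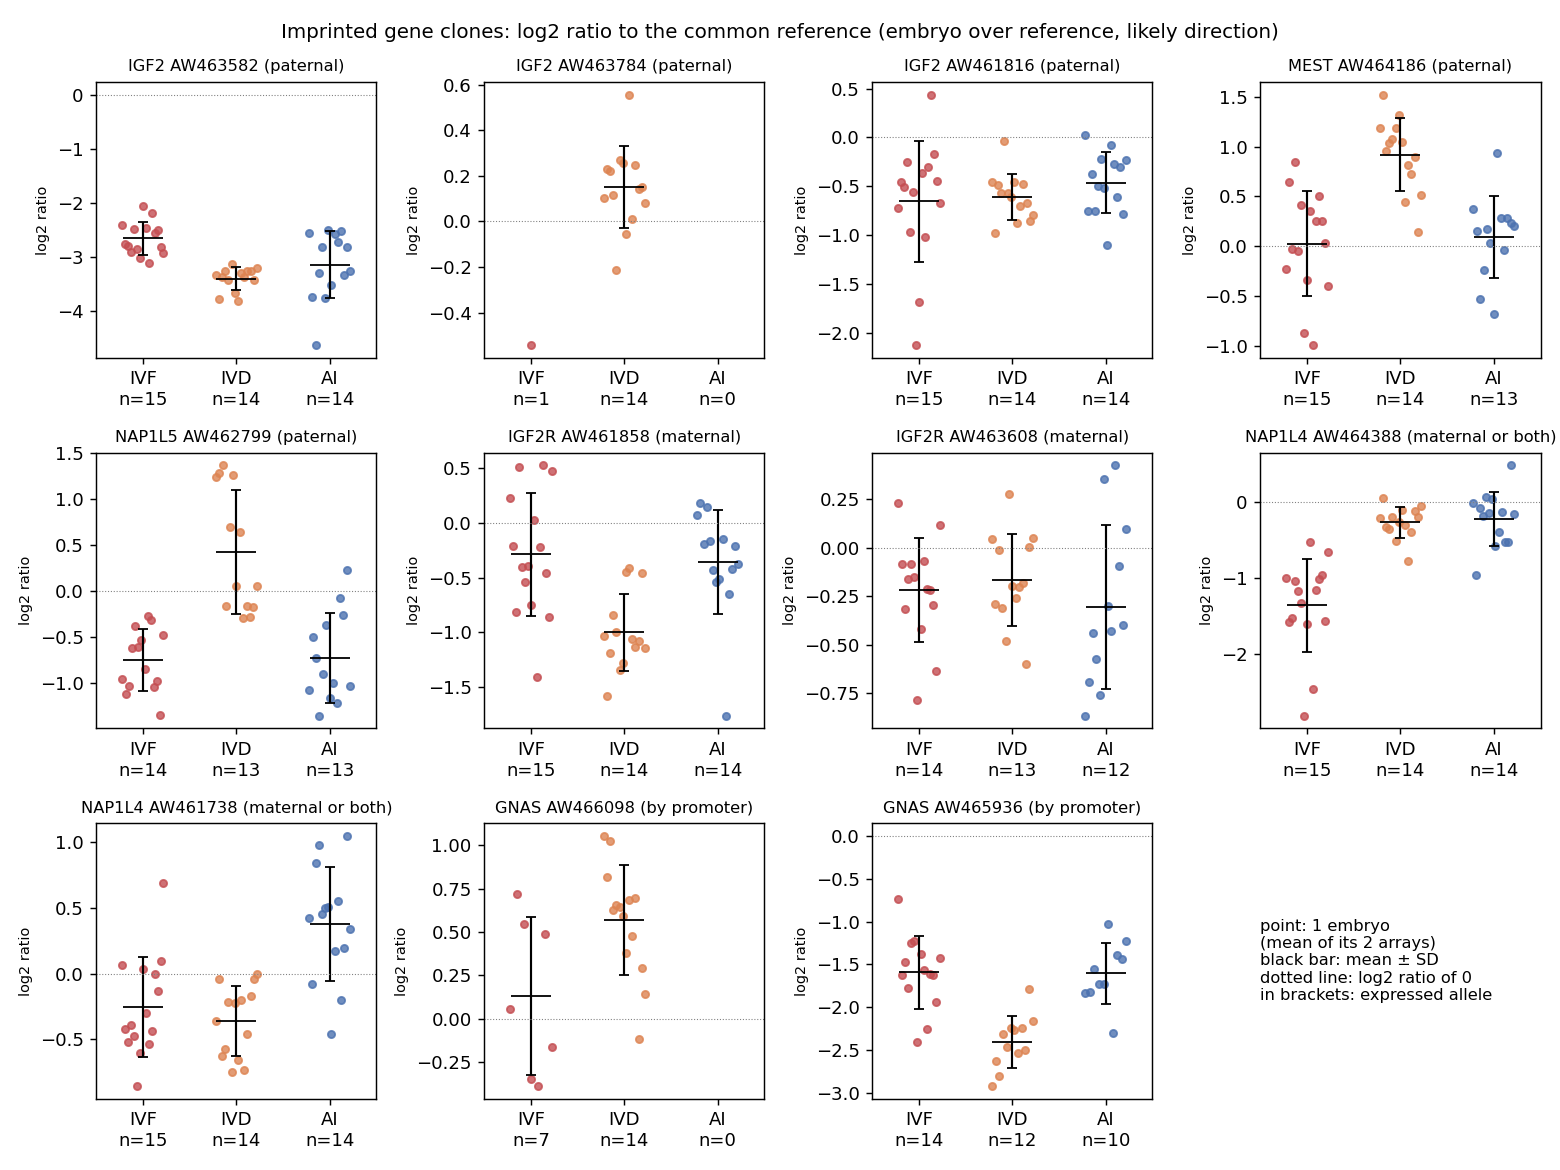
Log2 ratio to the common reference (y axis, embryo over reference as the likely direction) of the 11 member clones in each embryo, by group (IVF, IVD, AI from left to right), with mean ± SD; each panel has its own axis. The MEST and NAP1L5 clones sit higher in IVD, and IGF2 AW463784 and GNAS AW466098 have no AI embryo with a value on both arrays.

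IGF2 encodes the paternally expressed insulin-like growth factor II. In clone AW463582 the log2 ratio had its lowest, median and highest values at -3.11, -2.75 and -2.05 in the 15 IVF embryos. In the 14 IVD embryos they were -3.8, -3.35 and -3.12, and in the 14 AI embryos -4.62, -3.04 and -2.49. Every IVF embryo lay above every IVD embryo, which 3.27% of all features showed in either direction, while AI overlapped both. The gap was narrow, between IVF 11 at -3.115 and IVD 6 at -3.12, and the groups overlapped on each dye orientation alone. On Cy5 arrays IVF 11 was at -4.289, below every IVD embryo. On Cy3 arrays IVF 7 was at -3.021, below IVD 6 at -2.409. IVF exceeded IVD by 0.75 ± 0.15 (log2, SE), a 1.68-fold difference (limma adjusted p = 8.76e-05). IVF exceeded AI by 0.49 ± 0.15 (adjusted p = 0.0104), with 15 of 15 IVF embryos above the AI mean. IVD minus AI was -0.26 ± 0.16 (adjusted p = 0.178), but this was called lower in 3 alternatives: -0.60 after quantile normalization (adjusted p = 0.00103), -0.41 on the Cy3 embryo arrays alone (adjusted p = 0.00752) and -0.41 with embryos measured on 1 array kept (adjusted p = 0.00825).

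The IVF over AI call of this clone was lost in several alternatives. Its adjusted p was 0.0549 on the values as given (without centring of arrays), 0.217 after quantile normalization, 0.204 on the Cy3 embryo arrays alone, 0.0687 with every row on its own and 0.0965 with the embryos' dye-bias cluster, found from the data in 3 clusters, as a block. AI embryos were also widely spread in it, with an SD of 0.62, and 19.4% of all features had a larger SD in AI. The SD was 0.307 in IVF and 0.211 in IVD. The AI embryos ran from -3.179 to -2.092 on Cy3 arrays and from -6.943 to -2.288 on Cy5 arrays. AI embryo 5, the lowest, had -2.157 on its Cy3 array and -6.943 on its Cy5 array. The AI spread thus lay mostly in the Cy5 arrays, and embryo and array effects cannot be told apart in it.

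A second IGF2 clone, AW461816, was not called in any comparison, although on Cy3 embryo arrays alone IVF over AI was -0.45 (adjusted p = 0.0284). Its log2 ratio had a lowest, median and highest value of -2.13, -0.511 and 0.437 in IVF, -0.975, -0.589 and -0.0415 in IVD, and -1.1, -0.437 and 0.0247 in AI. The groups overlapped throughout, and IVF minus AI was -0.19 ± 0.16 (adjusted p = 0.341). The difference between the clones themselves was tested on embryo-wise differences over 693 clone pairs of 530 genes. AW463582 minus AW461816 was 0.683 higher in IVF than in AI (adjusted p = 0.0103) and 0.791 higher in IVF than in IVD (adjusted p = 0.00208). Such a difference was called in 26.8% of pairs in IVF over AI, 33.8% in IVD over AI and 35.6% in IVF over IVD. The IGF2 clone difference was no longer called in IVF over AI after quantile normalization (adjusted p = 0.156), on Cy5 arrays (0.108) or with dye-bias cluster as a block (0.16), nor in IVF over IVD on Cy5 arrays (0.0758).

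Between embryos of a group the IGF2 clones were little correlated. Their Pearson r was 0.083 in IVF (n = 15), 0.057 in IVD (n = 14) and 0.17 in AI (n = 14). Over all clone pairs of a gene the median r was 0.371 in IVF, 0.487 in IVD and 0.45 in AI. These are correlations over embryos that share arrays between clones, given as a description with no test of whether r is lower for IGF2 than for other genes.

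The third IGF2 clone, AW463784, was measured on both arrays in 1 IVF embryo, all 14 IVD embryos and no AI embryo. Of its spots, 15 of 60 had a value in IVF, 54 of 56 in IVD and 0 of 56 in AI. Why spots lack values is not stated, so the missing values put no bound on the level. The IVD mean was 1.94 on the Cy3 embryo arrays and -1.72 on the Cy5 embryo arrays, after the sign of the Cy3 arrays was turned. The mean of 0.151 over IVD embryos is therefore the midpoint of values that oppose each other.

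MEST, also known as PEG1, encodes a paternally expressed protein of the alpha/beta hydrolase fold family and is active in mesoderm. Its clone AW464186 had a lowest, median and highest log2 ratio of -0.993, 0.0287 and 0.84 in 15 IVF embryos. In 14 IVD embryos they were 0.144, 0.995 and 1.52, and in 13 AI embryos -0.681, 0.169 and 0.931. All 14 IVD embryos were above 0, as were 8 of 15 IVF and 9 of 13 AI embryos, and 8 IVD embryos lay above every AI embryo. IVD exceeded AI by 0.83 ± 0.17 (1.77-fold, adjusted p = 9.4e-05), and IVF minus IVD was -0.89 ± 0.16 (adjusted p = 1.45e-05). IVF minus AI was -0.07 ± 0.17 (adjusted p = 0.779). The mean in IVD was 0.911 on Cy3 arrays and 0.926 on Cy5 arrays, so both dye orientations gave the same level.

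The feature whose values followed this MEST clone most closely within groups was HNRNPDL AW464170. HNRNPDL encodes an RNA-binding protein of the hnRNP D family. The within-group r was 0.907 in IVF (n = 14), 0.978 in IVD (n = 14) and 0.97 in AI (n = 13), a mean of 0.952, with the spots 1367 rows apart in the table. Clones of other symbols were compared over 3879 named clones with at least 10 embryos per group. The median of each clone's highest mean r was 0.652, and 1.21% of clones had a higher one than MEST. The next closest were also HNRNPDL clones, BF039481 (mean r 0.823) and BF039567 (0.73). HNRNPDL AW464170 (mean r 0.639) and this MEST clone (0.613) were also among the 3 closest to IGF2 AW461816, after NT5C3B AW461679 (0.803).

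The HNRNPDL clone AW464170, like MEST, was called higher in IVD than in both other groups. Whether the sizes differ between MEST and HNRNPDL was not tested. It averaged 0.199 ± 0.58 in IVF (n = 14), 1.23 ± 0.434 in IVD (n = 14) and 0.398 ± 0.439 in AI (n = 14, SD). IVD over AI was 0.83 (adjusted p = 0.000244), IVF over IVD -1.03 (adjusted p = 8.71e-06) and IVF over AI -0.20 (adjusted p = 0.394). HNRNPDL AW464170 correlated with HNRNPDL BF039481 at 0.738 in IVF, 0.95 in IVD and 0.817 in AI. With HNRNPDL BF039567 its r was 0.362 in IVF, 0.985 in IVD and 0.924 in AI. Its r with the MEST clone was thus above both in IVF and AI, and between them in IVD. Which transcript the MEST spots captured was not tested, because clone sequences were not used here.

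**Figure D2:**
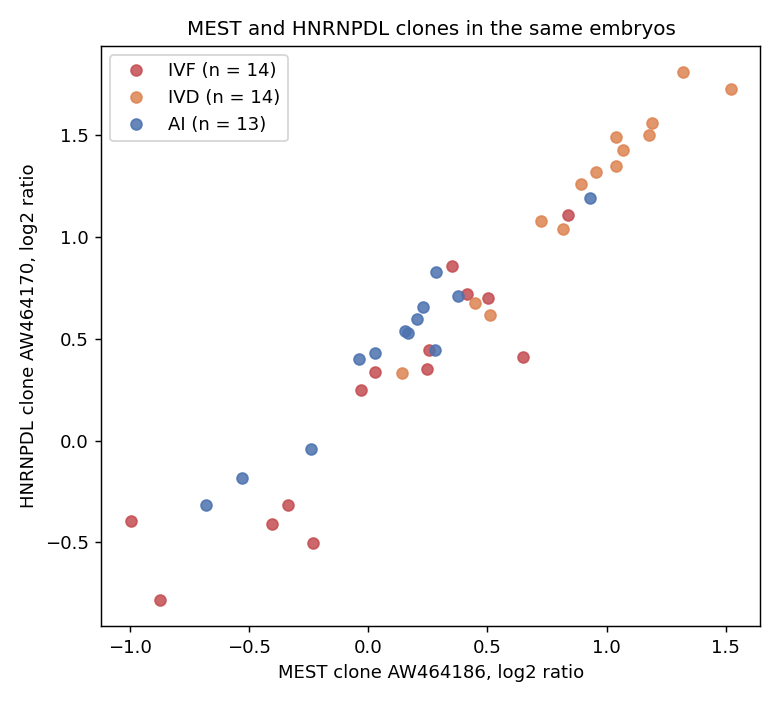
Log2 ratio of HNRNPDL clone AW464170 (y axis) against that of MEST clone AW464186 (x axis), with 1 point for each embryo measured in both (IVF n = 14, IVD n = 14, AI n = 13). The points of each group lie along a line (r of 0.907, 0.978 and 0.97), and IVD embryos lie toward high values of both.

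NAP1L5 is a paternally expressed gene of the nucleosome assembly protein family, best known from brain. Its clone AW462799 had a lowest, median and highest log2 ratio of -1.35, -0.732 and -0.266 in 14 IVF embryos. In 13 IVD embryos they were -0.291, 0.0615 and 1.37, and in 13 AI embryos -1.35, -0.901 and 0.229. All 14 IVF embryos were below 0. IVD exceeded AI by 1.15 ± 0.20 (2.22-fold, adjusted p = 7.68e-06), with 13 of 13 IVD embryos above the AI mean. IVF minus IVD was -1.18 ± 0.19 (adjusted p = 3.07e-06), and IVF minus AI was -0.02 ± 0.19 (adjusted p = 0.936).

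The IVD embryos themselves were far apart in NAP1L5. Embryos 1, 3, 4, 5, 6 and 9 lay between 0.643 and 1.37, and embryos 2, 8, 11 and 12_1 to 12_4 between -0.291 and 0.0615. The SD in IVD was 0.672, against 0.338 in IVF and 0.489 in AI, and 7.44% of all features had a larger SD in IVD. With embryos 12_1 to 12_4 averaged to 1, IVD exceeded AI by 1.32 (adjusted p = 2.22e-06). The clones most like NAP1L5 within groups were SRSF11 BF044406, a splicing factor gene (mean r 0.807), PLOD3 BF039911 (0.677) and PRPF6 BF039621 (0.664). None of these was called higher in IVD than in AI: the difference was 0.48 for SRSF11 (adjusted p = 0.0651), -0.31 for PLOD3 (adjusted p = 0.0173) and -0.17 for PRPF6 (adjusted p = 0.0826).

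IGF2R encodes the cation-independent mannose 6-phosphate receptor, which sorts lysosomal enzymes and takes up IGF2. In clone AW461858 the lowest, median and highest log2 ratios were -1.41, -0.394 and 0.527 in 15 IVF embryos. In 14 IVD embryos they were -1.58, -1.07 and -0.414, and in 14 AI embryos -1.76, -0.29 and 0.185. All 14 IVD embryos were below the AI mean, but the ranges overlapped, since AI embryo 16 had the lowest value of all. IVD minus AI was -0.64 ± 0.18, a 1.56-fold lower level in IVD (adjusted p = 0.00265), and IVF exceeded IVD by 0.71 ± 0.17 (adjusted p = 0.000712). IVF and AI differed by 0.07 ± 0.17 (adjusted p = 0.775). On the values as given IVD over AI was -0.39 (adjusted p = 0.166) and IVF over IVD 0.47 (adjusted p = 0.0925), so both calls were lost.

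The other IGF2R clone, AW463608, was not called in any comparison with both dye orientations and centred arrays. Its lowest, median and highest values were -0.785, -0.186 and 0.231 in 14 IVF embryos, -0.6, -0.194 and 0.28 in 13 IVD embryos, and -0.865, -0.414 and 0.426 in 12 AI embryos. Its groups overlapped almost fully, and IVD minus AI was 0.14 ± 0.13 (adjusted p = 0.386). The difference of the clones, AW461858 minus AW463608, was -0.796 in IVD over AI (adjusted p = 0.00647) and 0.759 in IVF over IVD (adjusted p = 0.00631). Their within-group r was 0.17 in IVF (n = 14), -0.092 in IVD (n = 13) and -0.32 in AI (n = 12). The IVD mean of AW463608 was 0.26 on Cy3 arrays and -0.598 on Cy5 arrays, against -0.355 and -0.277 in AI. The dye orientations thus opposed each other in IVD and not in AI. With Cy3 arrays alone IVD over AI was 0.62 (adjusted p = 0.00027) and IVF over IVD -0.56 (adjusted p = 0.000505). On the values as given IVD over AI was 0.43 (adjusted p = 0.0475). With Cy5 arrays alone IVD over AI was -0.32 (adjusted p = 0.201) and IVF over IVD 0.50 (adjusted p = 0.0305). On Cy5 arrays the difference of the IGF2R clones was not called in IVD over AI (-0.228, adjusted p = 0.588) or in IVF over IVD (0.289, adjusted p = 0.441). The clone closest to AW463608 within groups was PMM1 AW466169, a phosphomannomutase gene (mean r 0.816).

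NAP1L4 encodes another nucleosome assembly protein, a histone chaperone made in most tissues, and its gene lies beside PHLDA2 in the imprinted cluster that also holds IGF2. Clone AW464388 had a lowest, median and highest log2 ratio of -2.8, -1.16 and -0.526 in 15 IVF embryos. In 14 IVD embryos they were -0.778, -0.234 and 0.0538, and in 14 AI embryos -0.954, -0.148 and 0.482. Of the IVF embryos, 13 lay below every IVD embryo and 12 below every AI embryo. IVF minus AI was -1.13 ± 0.16, a 2.19-fold lower level in IVF (adjusted p = 4.26e-07), and IVF minus IVD was -1.09 ± 0.16 (adjusted p = 2.48e-07). IVD minus AI was -0.05 ± 0.16 (adjusted p = 0.836). The IVF embryos were the most spread, with an SD of 0.612 against 0.207 in IVD and 0.352 in AI. IVF embryo 7, which had the lowest value, was also the IVF embryo with the lowest dye-swap agreement.

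The second NAP1L4 clone, AW461738, was also lower in IVF than in AI but moved differently in IVD. Its lowest, median and highest values were -0.852, -0.387 and 0.686 in 15 IVF embryos, -0.747, -0.289 and -0.00325 in 14 IVD embryos, and -0.46, 0.439 and 1.04 in 14 AI embryos. All 14 IVD embryos were below 0, as were 11 of 15 IVF embryos, whereas 11 of 14 AI embryos were above 0. IVF minus AI was -0.63 ± 0.14 (adjusted p = 0.000364) and IVD minus AI was -0.73 ± 0.14 (adjusted p = 3.34e-05), while IVF and IVD differed by 0.11 ± 0.14 (adjusted p = 0.542). On the values as given the IVD over AI difference was -0.48 (adjusted p = 0.0628), and that call was lost.

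The NAP1L4 clones were both lower in IVF than in AI, but the size of that difference and their differences with IVD were not the same. AW464388 minus AW461738 was -0.507 in IVF over AI (adjusted p = 0.0049), 0.687 in IVD over AI (adjusted p = 0.000183) and -1.19 in IVF over IVD (adjusted p = 7.82e-09). The call in IVF over AI was lost on Cy5 arrays (adjusted p = 0.155). Within groups they followed each other more closely than the IGF2 and IGF2R clones, with r of 0.45 in IVF (n = 15), 0.71 in IVD (n = 14) and 0.78 in AI (n = 14). The nearest clones of other symbols were WDR37 BF043781 for AW464388 (mean r 0.661) and TRIR AW466179 for AW461738 (mean r 0.556). Of the clones compared, 46.1% and 90.4% had a higher top mean r than these, the median being 0.652. The top mean r was lower still for IGF2 AW463582 (0.514, with POLR2E AW464068) and IGF2R AW461858 (0.522, with LMAN2 AW463843).

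GNAS encodes Gs-alpha, the subunit that couples receptors to adenylyl cyclase, along with other products of the same locus. Clone AW465936 had a lowest, median and highest log2 ratio of -2.41, -1.59 and -0.732 in 14 IVF embryos. In 12 IVD embryos they were -2.92, -2.39 and -1.79, and in 10 AI embryos -2.3, -1.64 and -1.03. Of the IVD embryos, 7 lay below every AI embryo, and all 12 below the AI mean. IVD minus AI was -0.80 ± 0.16, a 1.74-fold lower level in IVD (adjusted p = 9.02e-05), and IVF exceeded IVD by 0.81 ± 0.15 (adjusted p = 1.79e-05). IVF and AI differed by 0.01 ± 0.15 (adjusted p = 0.962). The IVD over AI difference was -0.51 on the values as given (adjusted p = 0.0625), where the call was lost.

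The clones closest to GNAS AW465936 within groups were LRRC41 AW464143 (mean r 0.737), GNB1 AW464845 (0.719) and BET1 AW463393 (0.657). GNB1 encodes a beta subunit of the same class of heterotrimeric G proteins. Its r with GNAS was 0.618 in IVF, 0.599 in IVD and 0.941 in AI. GNB1 nevertheless had other group differences than GNAS, with 0.57 in IVF over AI (adjusted p = 0.00196) and 0.01 in IVD over AI (adjusted p = 0.969).

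The other GNAS clone, AW466098, had values on both arrays in 7 of 15 IVF embryos, 14 of 14 IVD embryos and no AI embryo, so it was not tested. Its lowest, median and highest log2 ratios were -0.389, 0.0557 and 0.721 in IVF and -0.118, 0.635 and 1.05 in IVD. Of the IVD embryos, 13 of 14 were above 0, with means of 0.993 on Cy3 and 0.14 on Cy5 arrays. When clones of a symbol were averaged to a gene, this clone entered in IVD and not in AI, and the averaged GNAS value was 0.844 higher in IVD than in AI (adjusted p = 0.000218), opposite in sign to that of AW465936. The same averaging gave IGF2 a difference of 0.364 in IVD over AI (adjusted p = 0.0122), with AW463784 entering in IVD and not in AI.

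**Figure D3:**
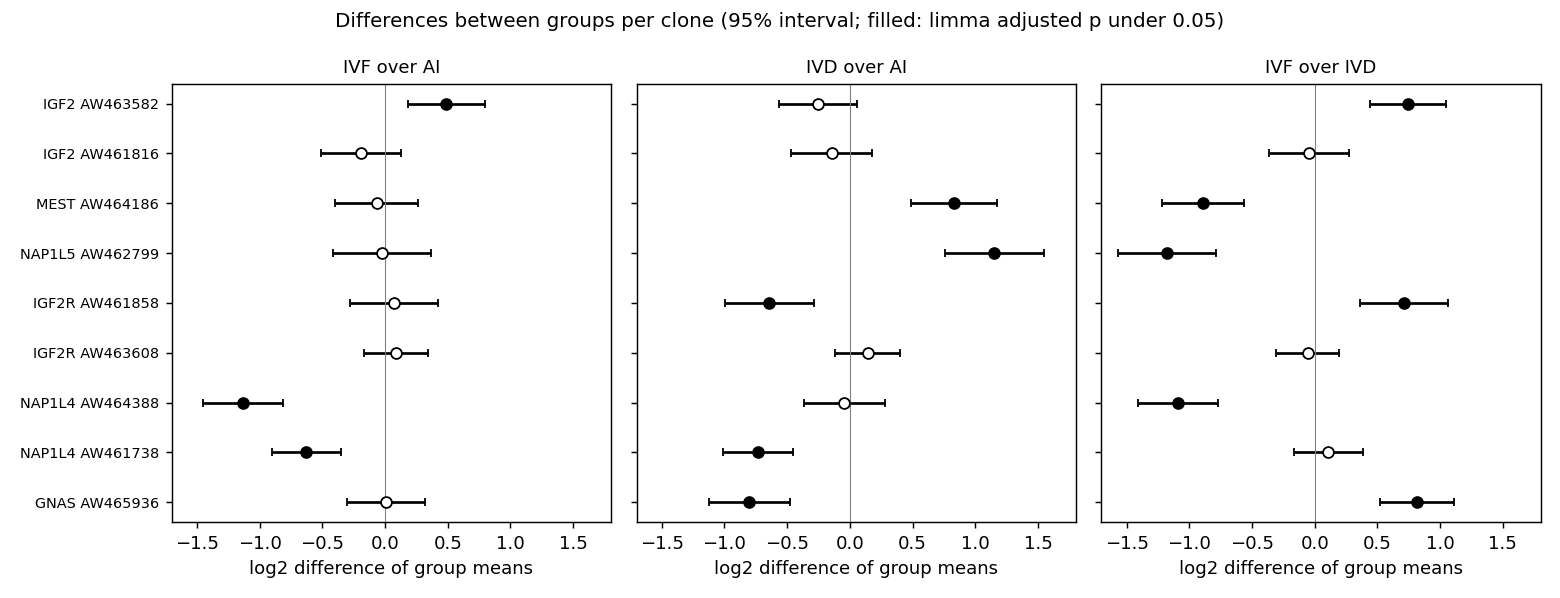
Log2 difference of group means with its 95% interval (x axis) for the 9 tested member clones (rows), in IVF over AI, IVD over AI and IVF over IVD; filled points passed limma's adjusted p of 0.05. NAP1L4 AW464388 is lowest in IVF over AI (-1.13), and NAP1L5 is highest in IVD over AI (1.15).

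The paternally and maternally expressed members were set against each other as a description. For each embryo, the deviation from the AI mean was averaged over clones of a gene, then over IGF2, MEST and NAP1L5, and was compared with that of IGF2R. The paternal mean was 0.015 ± 0.26 in IVF (n = 15), 0.567 ± 0.335 in IVD (n = 14) and 0.013 ± 0.32 in AI (n = 14, SD). The maternal mean was 0.103 ± 0.37 in IVF, -0.259 ± 0.191 in IVD and 0.014 ± 0.27 in AI. IVD embryos were thus higher in the paternal and lower in the maternal value, by a paternal minus maternal difference of 0.825 ± 0.442. That difference was -0.088 ± 0.355 in IVF. The paternal rise in IVD rests on the MEST and NAP1L5 clones, since neither tested IGF2 clone rose. The MEST clone followed HNRNPDL AW464170 closely within groups, and which transcript its spots captured was not tested. A few embryos were averaged over fewer clones: IVF 19, IVD 10 and AI 15 lacked NAP1L5 and IGF2R AW463608, AI 3 lacked MEST and AI 7 lacked IGF2R AW463608. IVF 19 had the highest maternal value (0.829) and the lowest difference (-1.08) of its group. Over the 14 IVF, 13 IVD and 11 AI embryos with every clone, the difference was -0.0174 ± 0.235 in IVF, 0.881 ± 0.404 in IVD and 0.003 ± 0.41 in AI. Restricted to clones measured in every embryo, which leaves out MEST, NAP1L5 and IGF2R AW463608, it was 0.0789 ± 0.524 in IVF and 0.443 ± 0.388 in IVD. The paternal side then held only IGF2, whose clones were both lower in IVD than in AI (-0.26 and -0.15, not called). The 0.443 in IVD thus came from IGF2R AW461858, which was 0.64 lower in IVD than in AI, and not from a paternal rise.

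The paternal members did not all move in the same direction. MEST (0.83) and NAP1L5 (1.15) rose in IVD over AI, whereas the differences of the IGF2 clones were -0.26 and -0.15 and were not called, the first of them being called lower in the 3 alternatives above. On the maternal side, IGF2R AW461858 fell by 0.64 (log2) and AW463608 stood at 0.14, not called. Averaged over both clones, IGF2R was at -0.25 in IVD over AI (adjusted p = 0.0799), so the call was lost. In IVF over AI, IGF2 AW463582 was the paternal clone called, and no IGF2R clone was. With 3 paternal genes and 1 maternal gene, and with clones of IGF2 and of IGF2R that differ, no test of the contrast was made.

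**Figure D4:**
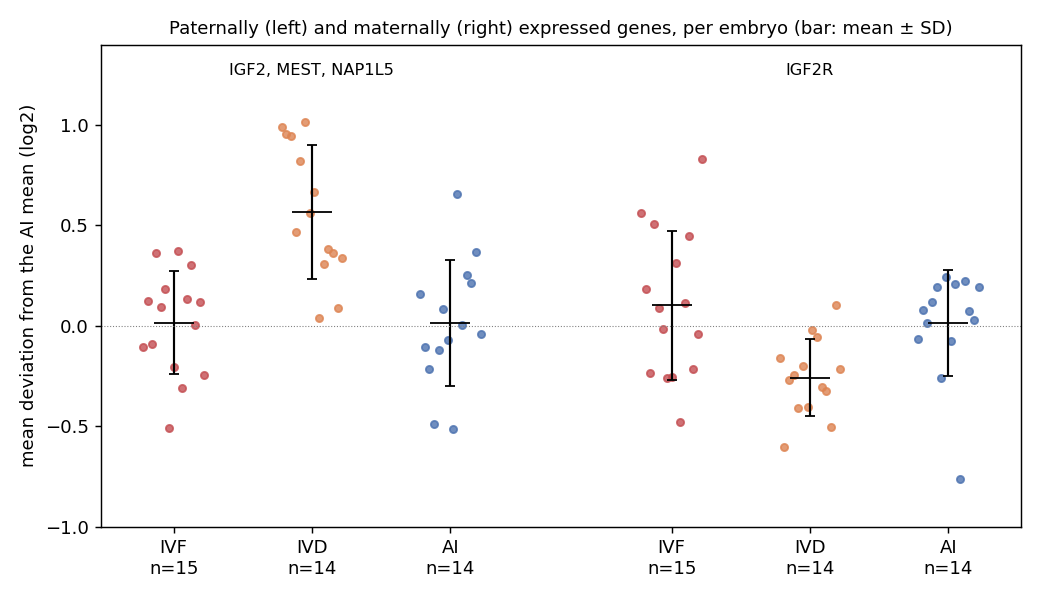
Mean deviation from the AI mean (y axis, log2) in each embryo for the paternally expressed IGF2, MEST and NAP1L5 (left) and the maternally expressed IGF2R (right), by group, with mean ± SD; IVF 19, IVD 10 and AI 3, 7 and 15 are averaged over fewer clones. IVD embryos sit at 0.567 ± 0.335 for the paternal genes and at -0.259 ± 0.191 for IGF2R. Which transcript the MEST spots captured was not tested.

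Other genes known to be imprinted in some tissue of mouse, human or cattle gave context. Their counts, and those of the pathway lists below, are to be read against all features. Of these, 20.3% were called higher and 17.7% lower in IVF over AI. The shares were 24.9% and 21.3% in IVD over AI, and 22.5% and 24.8% in IVF over IVD. Among paternally expressed genes, 9 clones of 6 genes were tested, and 6 clones were higher and 0 lower in IVF than in AI, with a median difference of 0.52 against 0.0438 over all features. In IVD over AI, 4 were higher and 1 lower (median 0.246 against 0.0572), and in IVF over IVD, 3 were higher and 0 lower (median 0.277 against -0.00263). Of the 6 clones called higher in IVF over AI, BF045311, AW464326 and BF041074 all belong to PEG3, so the clones are not separate genes. The largest in IVF over AI were GAB1 BF046579 (1.01, adjusted p = 0.00174), a signalling adaptor imprinted in mouse placenta, and BLCAP AW465674 (0.83, adjusted p = 0.000119), whose expressed allele depends on the transcript. PLAGL1 BF042359, a zinc-finger regulator of other imprinted genes in mouse, was 0.63 higher in IVF (adjusted p = 0.0127) and 0.74 higher in IVD (adjusted p = 0.00343) than in AI. SGCE AW465090, the sarcoglycan gene beside PEG10, fell by 0.69 in IVD over AI (adjusted p = 0.0224).

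PEG3, a paternally expressed zinc-finger gene, was measured by 4 clones. In IVF over AI they had differences of 0.46 (AW461515, adjusted p = 0.0708), 0.37 (BF045311, adjusted p = 0.00468), 0.52 (AW464326, adjusted p = 0.00201) and 0.54 (BF041074, adjusted p = 0.00665). None of the 6 pairs of PEG3 clones differed in IVF over AI at the threshold, the lowest adjusted p being 0.314. In IVD over AI, AW464326 (0.38, adjusted p = 0.0197) and BF041074 (0.77, adjusted p = 0.00012) were called, and BF041074 and BF045311 differed from each other (adjusted p = 0.000701).

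Among maternally expressed genes, 10 clones of 8 genes were tested, with 1 higher and 1 lower in IVF over AI (median 0.000682), 2 higher and 1 lower in IVD over AI (median 0.0323), and 1 higher and 1 lower in IVF over IVD (median -0.26). TRAPPC9 AW462101 was 0.34 higher in IVF than in AI (adjusted p = 0.0059). H19 AW465563, the noncoding RNA that shares enhancers with IGF2, was 0.61 higher in IVD than in AI (adjusted p = 9.35e-06), and IVF minus IVD was -0.55 (adjusted p = 2.93e-05). UBE3A BF040798, a ubiquitin ligase gene, was 0.59 higher in IVD (adjusted p = 0.00503). CD81 AW465486, a tetraspanin imprinted in mouse placenta, fell by 0.67 in IVF over AI (adjusted p = 0.0139), and its IVD over AI difference was -1.44 (adjusted p = 9.99e-07).

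**Figure D5:**
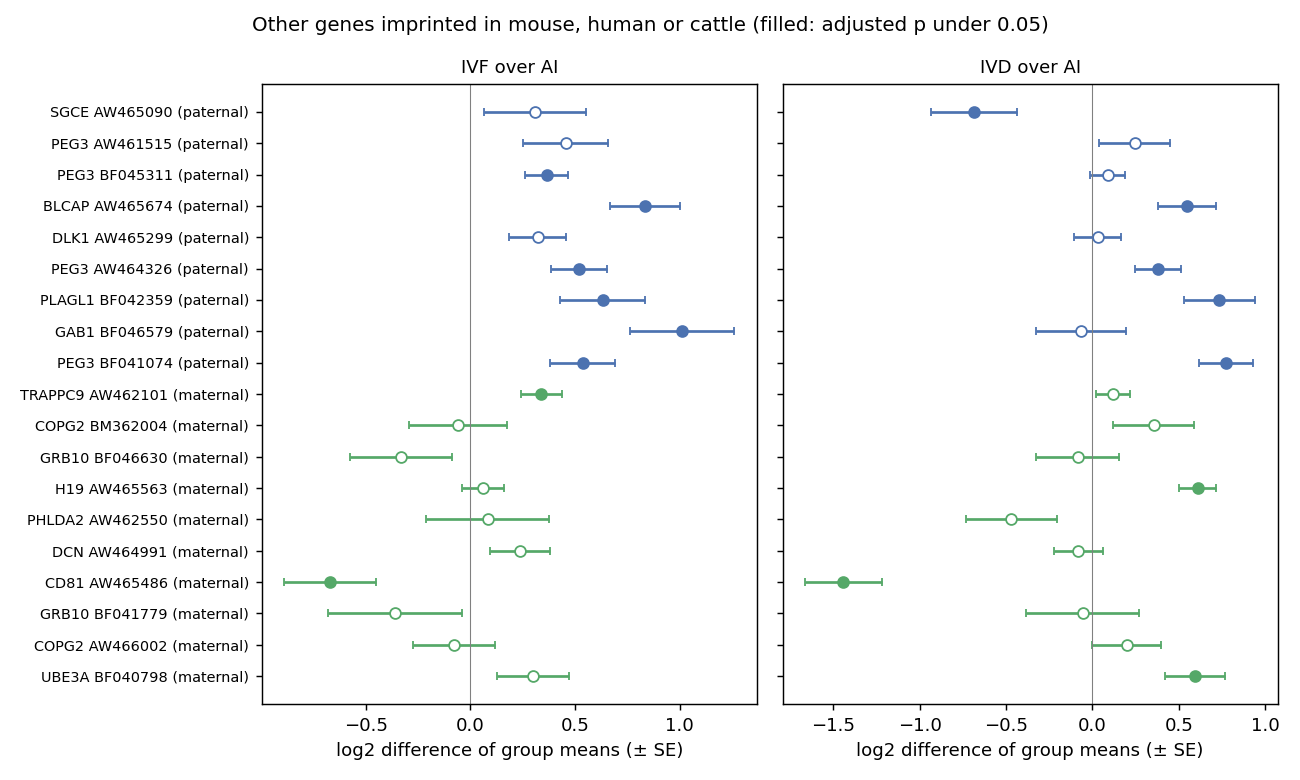
Log2 difference of group means ± SE (x axis) for 9 clones of other paternally expressed (blue) and 10 clones of other maternally expressed genes (green), in IVF over AI and IVD over AI; filled points passed limma's adjusted p of 0.05. In IVF over AI 6 paternal clones are filled, several of them of PEG3, and all of those lie above 0.

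In the RefSeq gene order of assembly ARS-UCD2.0, IGF2 lies next to INS, with 2 annotated genes between it and H19 and 14 between it and NAP1L4. The IGF2 clones were at -0.26 and -0.15 in IVD over AI (not called), while H19 rose and CD81, with 5 genes between it and IGF2, fell. LSP1 BF042923, also near IGF2, was 0.31 higher in IVD than in AI (adjusted p = 0.019). PHLDA2 AW462550, the gene adjacent to NAP1L4, was not called (IVD over AI -0.47, adjusted p = 0.145), nor was either clone of COPG2, adjacent to MEST (0.35 and 0.20 in IVD over AI, adjusted p = 0.211 and 0.428). Near NAP1L5, PPM1K BF040607 was 1.33 higher in IVD than in AI (adjusted p = 0.00856), a second PPM1K clone, BF043289, was at 0.53 (adjusted p = 0.0885), and ABCG2 AW462521 was 1.26 higher (adjusted p = 0.00127), while SPP1 BF040885 fell by 1.35 (adjusted p = 2.1e-12) and SPP1 BF042926 was at -0.09 (adjusted p = 0.811). Near IGF2R, both clones of SOD2 fell in IVD over AI, by 0.95 (AW464289, adjusted p = 8.51e-07) and by 0.89 (BF041653, adjusted p = 0.000945). Near MEST, CPA5 AW465738 (0.38, adjusted p = 0.0138) and AW464956 (0.53, adjusted p = 0.0106) were higher in IVD than in AI. UBE2H AW465397, also near MEST, was lower (-0.42, adjusted p = 0.0416), while UBE2H BF043624 and KLHDC10 AW464255 were not called. MRPL18, ACAT2 and WTAP near IGF2R were not called. Near GNAS, RAB22A AW465612 was 0.94 higher (adjusted p = 0.000832), while RAB22A BF042740, CTSZ, STX16, VAPB and PRELID3B were not called. Neighbours were thus called in either direction or not called, where 46.2% of all features were called in IVD over AI.

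The partners of IGF2 and IGF2R in growth-factor signalling had called clones in both directions. Of 17 tested clones of the insulin-like growth factor axis, 2 were higher and 1 lower in IVF over AI, 5 higher and 5 lower in IVD over AI, and 3 higher and 3 lower in IVF over IVD. The binding protein genes IGFBP7 AW461912 (0.64, adjusted p = 0.00121) and IGFBP4 BF042310 (-0.63, adjusted p = 0.0223) were called in IVF over AI, as was IGF2BP3 BF043931 (0.32, adjusted p = 0.0228), whose protein binds IGF2 RNA. The 3 highest in IVD over AI were RPS6KB1 AW463070 (0.75, adjusted p = 0.000144), IGFBP5 AW463589 (0.72, adjusted p = 0.00619) and PIK3R1 BM362236 (0.66, adjusted p = 0.0199). The 3 lowest were AKT1 BF042368 (-1.22, adjusted p = 1.55e-08), a kinase downstream of the receptor, IGFBP4 BF042310 (-0.80, adjusted p = 0.00381) and IGFBP3 AW464437 (-0.72, adjusted p = 0.00482). Of other clones of these genes, IGFBP4 BM366747 was also lower (-0.42, adjusted p = 0.0454). IGFBP4 BF039221 (-0.02, adjusted p = 0.913) and IGFBP3 AW461982 (-0.16, adjusted p = 0.291) were not called. None of these other clones was called in IVF over AI.

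Genes of mannose 6-phosphate sorting and the lysosome, the other pathway of IGF2R, were represented by 43 clones of 34 genes. Called clones numbered 7 higher and 10 lower in IVF over AI (median 0.0674), 5 higher and 11 lower in IVD over AI (median -0.199), and 13 higher and 3 lower in IVF over IVD (median 0.0536). The lowest in IVD over AI were LAMP1 AW464747 (-0.84, adjusted p = 9.2e-09), CTSA AW465588 (-0.72, adjusted p = 0.00623) and CTSH AW466189 (-0.59, adjusted p = 0.00105). The highest were ARSB AW462172 (1.09, adjusted p = 0.000305), CTSS BF044942 (1.08, adjusted p = 5.64e-07) and LAMP2 BF045617 (0.69, adjusted p = 0.00034). The other LAMP2 clone, AW463293, was not called in IVD over AI (-0.17, adjusted p = 0.297). M6PR BF045354, the smaller mannose 6-phosphate receptor, was not called against AI (0.31 in IVF, adjusted p = 0.0628, and -0.24 in IVD, adjusted p = 0.151). In IVF over AI the lowest were CTSZ AW462127 (-0.93, adjusted p = 0.00143), LAMP2 AW463293 (-0.72, adjusted p = 3.13e-05) and SNX1 AW461910 (-0.58, adjusted p = 6.43e-06). The highest there were ARSB AW462172 (0.71, adjusted p = 0.0151), ASAH1 AW461677 (0.50, adjusted p = 0.0444) and CTSS BF044942 (0.43, adjusted p = 0.0305). The other clones CTSZ AW462624 (-0.30, adjusted p = 0.12) and ASAH1 BF041279 (0.195, adjusted p = 0.385) were not called in IVF over AI.

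Of 8 clones of Gs-alpha and cAMP signalling, 1 was higher and 3 lower in IVF over AI (median -0.272), 3 higher and 1 lower in IVD over AI (median 0.331), and 2 higher and 4 lower in IVF over IVD (median -0.414). Lower in IVF than in AI were the G protein subunit genes GNG11 BM361956 (-1.09, adjusted p = 4.58e-05) and GNB2 AW465994 (-0.38, adjusted p = 0.0225), and PRKAR1A AW466081, a regulatory subunit of protein kinase A (-0.48, adjusted p = 0.000913). AKAP12 AW463034, an anchor of that kinase, was 1.18 higher in IVD than in AI (adjusted p = 1.65e-07), as were GNAI1 AW464185 by 0.80 (adjusted p = 0.0228) and GNG11 by 0.53 (adjusted p = 0.0331). GNB2 fell by 0.71 in IVD over AI (adjusted p = 4.24e-05).

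Among 16 clones of histone chaperones and nucleosome assembly, the functional class of NAP1L4 and NAP1L5, 2 were higher and 7 lower in IVF over AI (median -0.232). NAP1L4 AW464388 was thus lower in IVF beside NASP BF039280 (-1.31, adjusted p = 1.33e-06), SET BF043304 (-0.85, adjusted p = 1.27e-06) and SET BF045176 (-0.83, adjusted p = 0.000487). DAXX BM366444 (0.91, adjusted p = 0.0242) and RBBP7 AW464984 (0.36, adjusted p = 0.0383) were higher in IVF. In IVD over AI, 3 were higher and 4 lower (median -0.00574), and in IVF over IVD, 5 were higher and 6 lower (median -0.0585). The lowest in IVD over AI were MCM2 BF046032 (-2.03, adjusted p = 4.19e-09), SSRP1 AW465546 (-1.07, adjusted p = 3.45e-08) and NCL BF045484 (-0.47, adjusted p = 0.00687). The 3 that were higher were HAT1 AW464133 (0.42, adjusted p = 0.0331), RBBP7 AW464984 (0.36, adjusted p = 0.0341) and RBBP7 AW464328 (0.35, adjusted p = 0.0217).

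Of 14 clones of DNA methylation and imprint maintenance, 3 were higher and 1 lower in IVF over AI (median 0.0807), 3 higher and 3 lower in IVD over AI (median -0.109), and 4 higher and 2 lower in IVF over IVD (median 0.0471). TRIM28, a corepressor that guards imprinting marks in the early mouse embryo, fell in IVD over AI in both its clones, with differences of -1.45 (AW464834, adjusted p = 1.68e-12) and -1.44 (BF044024, adjusted p = 1.98e-09). EHMT2 AW461585, a histone methyltransferase gene, fell by 0.30 there (adjusted p = 0.000972). TRDMT1 BF046176 (0.62 in IVF, adjusted p = 0.0202, and 1.17 in IVD, adjusted p = 2.73e-05), GADD45A AW465978 (0.78, adjusted p = 1.8e-05, and 0.58, adjusted p = 0.000712) and CTCF BF039750, the insulator protein bound between IGF2 and H19 (0.50, adjusted p = 0.00131, and 0.51, adjusted p = 0.000781), were higher than AI in IVF and in IVD. AHCY AW462820 fell by 0.40 in IVF over AI (adjusted p = 0.0115).

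Marker clones of cell types were called in both directions, and their counts are to be read against the 38% of all features called in IVF over AI, 46.2% in IVD over AI and 47.2% in IVF over IVD. Of 31 trophectoderm clones, 4 were higher and 7 lower in IVF over AI, 9 higher and 8 lower in IVD over AI, and 4 higher and 11 lower in IVF over IVD. For cumulus and granulosa cells, 4 clones were tested, of which 3 were higher in IVF and 2 in IVD than in AI, and 0 lower. Their embryo medians ran from -0.324 to 0.26 in IVF, -0.409 to 0.151 in IVD and -1.01 to 0.0201 in AI. Of 10 primitive endoderm clones, 2 were higher and 3 lower in IVF over AI, and 1 higher and 4 lower in IVD over AI. All 4 inner cell mass clones were called in IVF over AI (2 higher and 2 lower), and 3 in IVD over AI (2 higher and 1 lower). The 4 blood and immune clones had 0 calls in IVF over AI and 1 in each direction in IVD over AI. For 2 clones of SPP1, a gene of oviduct and endometrium, 0 were called in IVF over AI and 1 was lower in IVD over AI. Their part in the results on the imprinted genes was not tested.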

How the data were processed

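The authors deposited a table of log2 ratios (16416 rows, 86 arrays); the steps before that (image analysis, background, normalization) are not stated in the labels. Cy5 over Cy3 was taken as the likely direction. The 16 values at a common ceiling above 16 were set to missing. The median over 5558 rows present on all arrays was subtracted per array, the sign of Cy3 embryo arrays was turned, and an embryo's 2 arrays were averaged. Rows of a clone were averaged and kept where both arrays gave a value in at least 7 embryos per group (6908 of 10723). Group means were fitted over all embryos with limma 3.58.1 in R 4.3.3 (two-sided, Benjamini-Hochberg over all features, threshold 0.05). The code was run on simulated data with known differences. Signs there were drawn at random for each clone and embryo, so the run cannot speak to array or dye effects in these embryos. All adjusted p-values are limma's, and ± beside a difference is its SE. Each embryo counted as 1 replicate, so the number of embryos limits the precision. P-values set a group difference against the spread between these embryos. Symbols come from the platform annotation (11196 rows with 1 symbol, 190 with several, 5030 unlisted), and 11182 of them matched RefSeq of ARS-UCD2.0. Figures were drawn with matplotlib 3.10.9.

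All members were named, with up to 3 highest and 3 lowest called clones of each pathway list. For each tested member clone, the 3 clones of other symbols with the highest mean within-group r were looked up. Only some of these are named. The members and lists were chosen with earlier results of these data known. Neighbours within 10 genes were looked up, and those named among them were chosen after their values were seen. Same-numbered embryos of different groups are not stated to be related: the correlations of their deviations from group means had medians of -0.043 (IVF and AI), 0.033 (IVD and AI) and 0.0095 (IVF and IVD), so the numbers were not taken to pair them. Alternatives were other centring, quantile normalization, a single dye orientation, other filters, rows or genes in place of clones, blocks and embryos left out.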

Additional observations from a re-analysis of the deposited data

How the results depend on the processing

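Under the alternatives that do not leave out single embryos, MEST and NAP1L5 kept their calls in IVD over AI and IVF over IVD wherever they could be fitted (not where a value in every embryo was asked), as did NAP1L4 AW464388 in IVF over AI and IVF over IVD and AW461738 in IVF over AI. Leaving out each embryo in turn ended no call of a member clone and reversed none, with 2493 to 2676 features called in IVF over AI, 3044 to 3270 in IVD over AI and 3146 to 3298 in IVF over IVD.

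On the values as given, without centring, 1485 features were called in IVF over AI and 3 member clones in IVD over AI. All features then shifted by a median of 0.317 in IVD over AI and -0.26 in IVF over IVD, so that 84.9% of calls in IVD over AI were higher (53.9% with centring) and 18% in IVF over IVD (47.5% with centring). Signs turned for GNAS AW465936 in IVF over AI (-0.00219), IGF2 AW461816 (0.108) and NAP1L4 AW464388 (0.208) in IVD over AI and NAP1L4 AW461738 in IVF over IVD (-0.139). Quantile normalization turned GNAS in IVF over AI (-0.0461).

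With Cy3 arrays only, signs turned for IGF2R AW461858 in IVF over AI (-0.0933) and NAP1L4 AW461738 in IVF over IVD (-0.167). With Cy5 arrays only, they turned in IVF over AI for IGF2 AW461816 (0.0703), MEST (0.114) and the difference of the IGF2R clones (0.0603), in IVD over AI for IGF2R AW463608 (-0.321) and NAP1L4 AW464388 (0.0974), and in IVF over IVD for IGF2 AW461816 (0.14) and IGF2R AW463608 (0.503).

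Asking for a value in every embryo, which leaves fewer clones to test, gave 1966 features and 2 member clones called in IVD over AI, 2082 and 3 in IVF over IVD, and 2862 features in the F-test. Rows in place of clones, which are more numerous, gave 4100, 4963, 5131 and 7192 features called (IVF over AI, IVD over AI, IVF over IVD, F-test). Averaging clones of a gene, which lets IGF2 AW463784 and GNAS AW466098 enter in some groups, turned IGF2 AW461816 in IVF over AI (0.0498), both IGF2 clones (0.364), IGF2R AW463608 (-0.245) and GNAS (0.844) in IVD over AI, and IGF2 AW463582 (-0.314), IGF2R AW463608 (0.362), NAP1L4 AW461738 (-0.507) and GNAS (-0.413) in IVF over IVD.

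With embryo number as a replicate block (12 IVF, 10 IVD and 8 AI embryos), 1772, 2247 and 2735 features were called in the 3 comparisons, and signs turned in IVF over AI for MEST (0.0303), NAP1L5 (0.17) and IGF2R AW461858 (-0.034). The block ended the calls of the IGF2 clone difference (0.801, adjusted p = 0.0681) and the NAP1L4 clone difference (-0.371, adjusted p = 0.277) in IVF over AI and of the IGF2R clone difference in IVF over IVD (0.887, adjusted p = 0.0628), and no other call of a member clone. With dye-bias cluster as a block the difference of the IGF2R clones turned in IVF over AI (0.13). Leaving out embryos was decided on after the data had been seen. Without IVF embryos 1, 7 and 11, signs turned for MEST (0.115) and the difference of the IGF2R clones (0.00339) in IVF over AI and IGF2 AW461816 in IVF over IVD (0.113). Outside of averaging, and except for IGF2R AW463608 in IVF over IVD with Cy5 arrays (adjusted p = 0.0305), no value that turned was called before or after. The causes were not tested.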
